A study of Danio rerio with 6 samples.

Results

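Fibroblast growth factors (FGFs) are secreted or cell-released ligands that bind receptor tyrosine kinases at the cell surface. The activated receptor phosphorylates docking adaptors of the FRS family, which recruit further proteins and pass the signal to the RAS and MAP kinase cascade, and Sprouty and related proteins restrain the cascade. In the vertebrate lens, FGF signaling is known for its part in epithelial cell proliferation and in fiber cell differentiation. The 2 genes described here stand at separate steps of this route. *fgf1b* (ENSDARG00000042811) encodes a ligand of the FGF1 type. *frs2a* (ENSDARG00000045873) encodes a homologue of FRS2, the FGF receptor substrate that acts as a docking adaptor inside the cell.

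RNA from dissected whole eyes of zebrafish larvae at 72 h post fertilization (hpf) was sequenced in 2 groups, with 3 libraries in each by the sample labels. The genotype label of the first mutant library is printed crim1-/.- and was read as *crim1*-/-. The *crim1*-/- larvae came from in-crossed fish and carried a small frameshift deletion on both alleles of *crim1*, a line raised from a single founder fish, and the library titles call them knockdown. The controls are labelled wildtype, and by the study's methods they descend from EKW fish or from NBT:DsRed fish, in which a neural tubulin promoter drives a red reporter. The parents of the *crim1*-/- larvae were picked for a normal look without eye defects. The labels do not say how many larvae went into a library, nor whether libraries of a group came from separate clutches, and the design text of the series gives 2 replicates per group in place of 3.

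Both genes were chosen by their place in the authors' deposited table of genes that differed between *crim1*-/- and control eyes, a table selected on adjusted p-value, fold change and expression level. They are 2 of the 223 genes listed there. Being listed is therefore what selected them and is not a result about them. The table holds 1 measurement that is not itself the outcome of that comparison: the mean normalized count of each gene over all libraries, with both genotypes pooled. The fold changes, their standard errors and the p-values in the table are the authors' own and were not used here. Counts of single libraries were not analysed here. No direction or size of a genotype effect, no spread between replicates and no depth per library is therefore given for either gene, and no test was made.

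For *fgf1b*, the study's RT-qPCR primers are shown because they mark the transcript by which the ligand gene was measured in a second assay, whose values were not analysed here. The study assigned them to the same RefSeq transcript that the reference gene table gives for *fgf1b*. Both are printed 5′ to 3′ in lower case.
fgf1b forward: gttgtggccatcagaggtcat
fgf1b reverse: accagtctccgttgtcctgat
Each primer has 21 bases, of which 11 are G or C. The same list of primers has no pair for *frs2a*.

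The ligand gene *fgf1b* had an authors' mean of 104 normalized counts over all libraries. This value lay just under the median of the listed genes, which was 111, and 117 of the 223 listed genes had a higher mean. In that order its direct neighbours were CR396583.1 at a mean of 106 normalized counts and *ccdc127a* at 103. Whether these means differ cannot be judged, because the table gives no spread for a mean.

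The adaptor gene *frs2a* had an authors' mean of 78.1 normalized counts over all libraries. A higher mean was listed for 135 genes, so it too stood in the lower part of the order. Its direct neighbours there were si:ch211-214b16.4 at a mean of 79.9 normalized counts and *prozb* at 77.7. Between *frs2a* and *fgf1b* lay 17 listed genes. Nearness of this kind was common, as 95 other listed genes had a mean within 2-fold of *fgf1b* and 99 within 2-fold of *frs2a*. The means are of read counts that were not divided by transcript length. The order is therefore one of reads and does not rank the genes by their number of RNA molecules.

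The pooled means limit what either group could have held, whatever the direction of the difference. Since a normalized count cannot be negative and the labels give equal groups, neither group mean can have been more than 2 times the pooled mean, which is 208 normalized counts for *fgf1b* and 156 for *frs2a*. A single library of the 6 could have held at most 625 normalized counts of *fgf1b* and at most 469 of *frs2a*. How each total was divided between the genotypes is not given by these limits. These limits follow from arithmetic on the deposited means. Those on group means need groups of equal size, and those on a single library would be lower if fewer than 6 libraries entered the means.

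**Figure D1:**
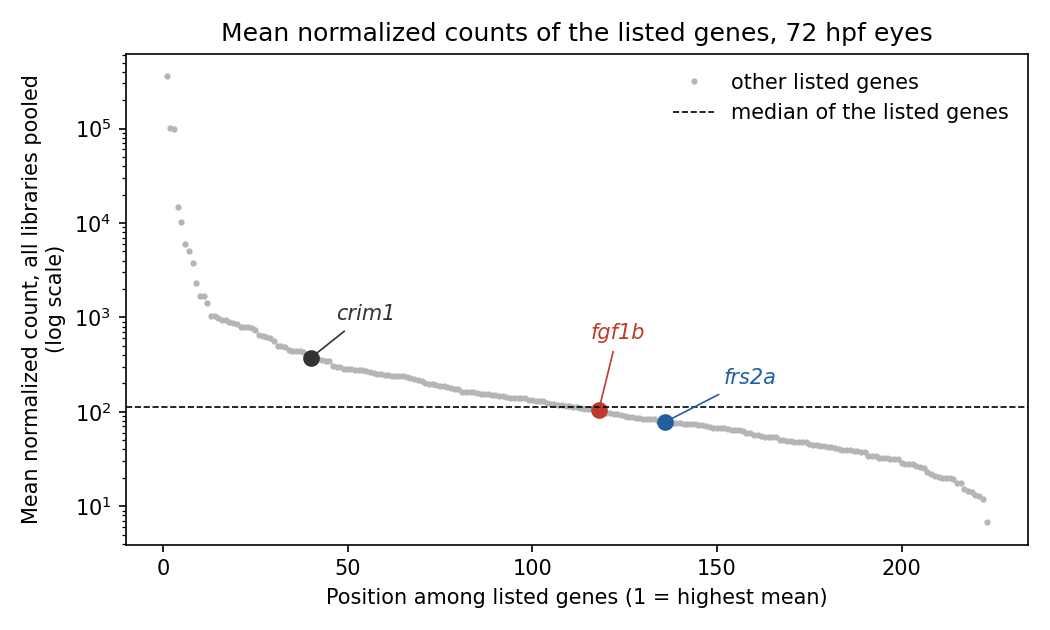
Mean normalized count of each of the 223 listed genes over all libraries (vertical axis, log scale) against its position in descending order (horizontal axis), with 1 point per gene, no error bars because the table pools the libraries, and a dashed line at the median of 111. *fgf1b* at 104 and *frs2a* at 78.1 sit below the median, and *crim1* at 372 sits above it.

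The targeted gene *crim1* (ENSDARG00000029668) had an authors' mean of 372 normalized counts, with 39 listed genes higher. Its values in single libraries were not analysed here, so the genotype labels were not compared with *crim1* RNA. The listed means ran from 6.76 normalized counts for *or128-1* to 357210 for *crygm2d17*, a gamma crystallin gene. Crystallins are structural proteins of the lens, so reads of a lens gene were present in the pool of libraries. A pooled mean does not show in which libraries or groups they were. *or128-1* and *crygm2d17* were named after their values were seen. In whole eyes, a change in the number of cells that express a gene and a change in RNA per cell cannot be told apart.

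Among the 77 FGF ligands, receptors, binding proteins, relay proteins, inhibitors and target factors that were looked up, only these 2 genes were listed. The 77 do not cover every gene that may act in the pathway. They include the co-receptor genes *kl* and *klb* of the klotho family but not *lctlb*, a gene of the same family. *lctlb* was listed, with a mean of 47.8 normalized counts. Over the whole RefSeq annotation, 152 of 27039 protein-coding genes, or 0.562%, matched a listed gene, whichever way it differed. That share may be too low, because 70 of the 223 listed genes could not be placed in this annotation. It is also a share of all annotated protein-coding genes and not of the genes that the authors tested. The 2 genes were chosen for being listed, so the count of at least 2 was fixed, and at such a share groups of this size would hold few or no listed genes in any case. The counts below say which genes the table holds and nothing about the groups. Among 25 ligands, *fgf1b* was the 1 listed. Its paralog *fgf1a*, the other zebrafish gene of the FGF1 type, was not in the table. None of the 8 receptor genes, which include *fgfr1a*, *fgfr2*, *fgfr3* and *fgfr4*, was listed. Neither was any of the 8 genes of co-receptors and FGF-binding proteins that were looked up.

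Inside the cell, *frs2a* was the 1 listed gene among 24 adaptors and relay proteins. Its paralog *frs2b* and the related adaptor gene *frs3* were not listed. The same held for *grb2a* and *grb2b*, which encode the adaptor that FRS2 proteins recruit. Of 9 feedback inhibitors, among them *spry1*, *spry2*, *spry4* and *dusp6*, 0 were listed. The 3 ETS factors *etv4*, *etv5a* and *etv5b*, transcription factors known as targets of FGF signaling, were not listed either. A gene that is absent from the table is not thereby shown to be unchanged, because it may have missed any of the limits on adjusted p-value, fold change or expression level. Matching by gene ID, where the table of gene names used here gives one, found 0 further genes of the 77 listed under another symbol. This match needed the same symbol there as in the pathway list, apart from case. Genes named there without the paralog letter, as with FRS2 for *frs2a*, would be missed, so the 0 does not cover them.

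The table of gene names used here pairs the ID of *frs2a* with the symbol FRS2, while the RefSeq table lists *frs2a* under its own name and gives FRS2 in lower case as a synonym of *frs2b*. The symbol *frs2a* is the one the deposited table uses. Reads that match both copies of a pair of paralogs can be divided between them by the estimation step of RSEM, and whether *fgf1b* shares reads with *fgf1a*, or *frs2a* with *frs2b*, was not tested.

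In gene order the members lay apart from each other and from the targeted locus. In the RefSeq annotation of assembly GRCz12tu, *fgf1b*, *frs2a* and *crim1* were on separate chromosomes, and the paralogs *fgf1a* and *frs2b* were on other chromosomes than their partners. This assembly is not the GRCz11 build that the authors aligned to, so it was used for gene order alone and no coordinates are given. The gene next to *fgf1b* was *spry4*, a Sprouty gene that restrains signaling by receptor tyrosine kinases and that was not listed.

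Near *fgf1b*, 3 other listed genes lay within 100 protein-coding genes on each side. They were *si:ch73-362m14.4* at 18 genes away with a mean of 64.8 normalized counts, *rapgef6* at 34 genes with 141, and *apbb3* at 76 genes with 108. *rapgef6* encodes an exchange factor for Rap GTPases. The chromosome ended 52 genes beyond *fgf1b*, so its window held 152 genes. Full windows, which are larger, held a median of 1 listed gene and a mean of 1.06 over all protein-coding genes that had one. No value for windows of the same size as that of *fgf1b* was computed.

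Near *frs2a*, 4 other listed genes lay within the same distance. The nearest was *nudt4b*, a gene of the Nudix hydrolase family, at 14 genes away with a mean of 75.4 normalized counts. The others were *zgc:194209* at 47 genes with a mean of 285, *selenoo2* at 61 genes with 106, and *crebl2* at 74 genes with 789. The window of *frs2a* held 183 genes, because 83 lay on its shorter side. Over the 22026 protein-coding genes with a full window, the median was 1 listed gene and the mean was 1.06. Both members are themselves listed, and the same counts around the other listed genes are not given here. Whether the members differ from other listed genes in this was therefore not tested. Only the 153 listed genes that could be placed, at 152 positions, were counted, and 70 could not be placed, so counts of neighbours may be too low. The ligand genes *fgf23* and *fgf6b* also lay in the window of *frs2a*, at 77 and 78 genes away, and were not listed.

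**Figure D2:**
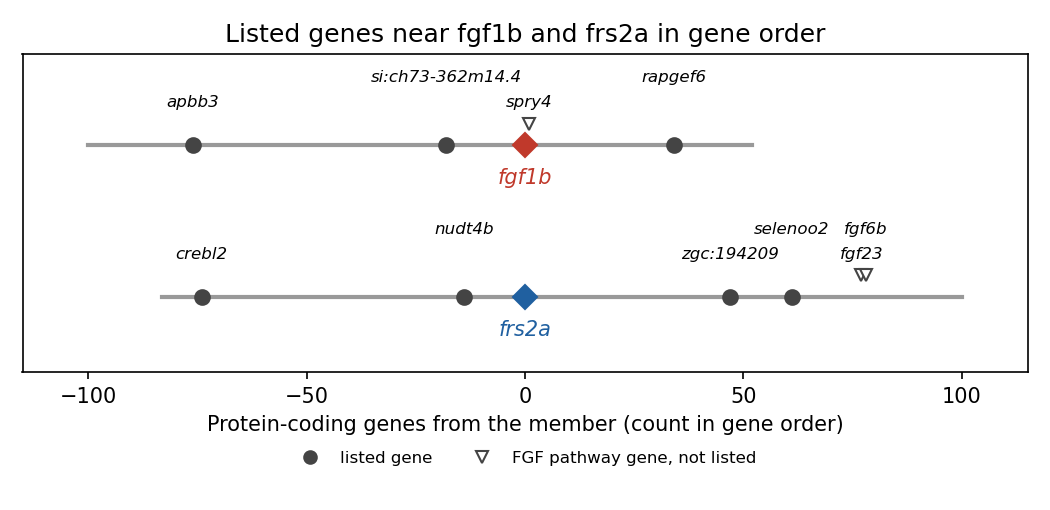
Gene order around *fgf1b* and *frs2a* (diamonds), with the horizontal axis counting protein-coding genes from the member, grey lines spanning the window up to the chromosome end, filled circles for listed genes and open triangles for FGF pathway genes that were not listed. *fgf1b* has 3 listed genes in its window and *spry4* as its direct neighbour, and *frs2a* has 4 listed genes in its window. The median over all protein-coding genes with a full window was 1 and the mean was 1.06. Neither member has a full window, and the members were not compared with other listed genes.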

How the data were processed

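Bulk RNA-seq was performed on dissected whole eyes of *crim1*-/- and control larvae at 72 hpf. According to the study's methods and the submitters' processing notes, single-end reads were checked with FastQC, trimmed with BBDuk, aligned to GRCz11 with STAR, quantified per gene with RSEM and compared with DESeq2 (tool versions: not given in the sources used here). A single table of 223 genes was deposited by the authors. Its mean normalized count is a signal that the authors obtained by dividing counts by size factors and averaging over all libraries, so genotype, depth and replicate spread cannot be recovered from it. Its other 4 columns hold the authors' log2 fold change, standard error, p-value and adjusted p-value, and were not used. The planned edgeR test could not be made for lack of counts per library.

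From the table were computed the order of the listed genes by mean, the arithmetic limits on group means and single libraries, and the number of listed genes in a list of 77 FGF pathway genes. Gene order came from the RefSeq annotation of GRCz12tu, in which 153 of 223 listed genes were placed by symbol or synonym; it was added after the data were seen. Of the listed IDs, 207 were in the table of gene names. Values per coding length and protein comparisons with the paralogs were planned and not made, as lengths and protein sequences were not used here. The named genes are the members, their paralogs, pathway genes, *crim1*, and the genes directly above and below each member. Neighbours in gene order and *lctlb* were named after the data were seen. The members and lists were chosen with earlier results of these data known. The ranking step and the search for listed neighbours were tested on simulated data. The counts over all genes with a full window were not tested in this way. Python 3.11.15, NumPy 2.4.6, pandas 2.3.3 and Matplotlib 3.10.9 were used.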

Additional observations from a re-analysis of the deposited data

How the results depend on the processing

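No paired analysis was possible because the values used here pool all libraries, although replicate numbers are shared between groups in the labels; fits without each replicate, with another normalization or without a low-count filter were not run for the same reason, and the planned values per coding or transcript length were not made. The count of 2 listed FGF pathway genes could not fall among the 76 list symbols found in the RefSeq table or the 36 ligands, receptors and FRS adaptors, since both hold the 2 members; it was 2 in each. Most genes with clone-based names or no name were then left out, but those whose names begin with CABZ, also accessions, were not caught and stayed in. Of the other genes in this set, 61.3% had a higher mean than *fgf1b*, against 52.7% in the full list. For *frs2a* the share was 69.4%, against 60.8%. Shares without the CABZ genes were not computed. With 4 libraries, as the design text implies, the most that a single library could have held falls to 416 normalized counts for *fgf1b* and 312 for *frs2a*, while the limits on group means do not move. Windows of 50 genes on each side held 2 listed genes around each member, against a median of 0 and a mean of 0.552 over all genes with a full window. Windows of up to 200 genes on each side held 4 around each, against a median of 2 and a mean of 2.02. Chromosome ends cut the latter to 252 genes for *fgf1b* and 283 for *frs2a*, while the median and mean came from full windows. The library number and windows were chosen after seeing the data. Depth per library is unknown.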
